A study of Mus musculus with 12 samples.

Results

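The 33 genes described here encode glucose and lactate transporters, the enzymes of glycolysis, the enzyme that makes 2,3-bisphosphoglycerate (BPG), and the enzymes of the pentose phosphate pathway. Their transcripts were measured by RNA sequencing of G1E-ER-GATA-1 cells, in 12 libraries. They were chosen by name, step by step along these pathways, by a rule that uses no measured value, though earlier results of these data were known when they were listed. They are 33 of the 25097 genes in the deposited tables, and 30 of them were among the 12115 genes that passed the filter on low counts. The 3 others were Pfkfb3, Eno2 and Ldhb, alternative enzymes of a regulatory step, of enolase and of lactate dehydrogenase. They held at most 16 rounded counts summed over the 3 libraries of any group and were not tested.

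G1E-ER-GATA-1 cells are mouse erythroid precursors without endogenous GATA-1, the master transcription factor of red cell maturation. They carry GATA-1 joined to the estrogen receptor's ligand-binding domain, so that beta-estradiol switches the fusion on. The 4 groups had 3 libraries each. They were mutant cells with 1 µM beta-estradiol for 48 h and 1 mM 5-aminolevulinic acid (5-ALA), mutant cells given estradiol alone, WT cells given estradiol alone, and untreated WT cells. The mutant cells are named double mutants in the labels, which describe them as carrying mutated cis-elements of Alas2, the gene of the erythroid enzyme that makes 5-ALA, the precursor from which heme is built. All groups share the fusion, the lack of endogenous GATA-1, puromycin, erythropoietin and medium with Kit ligand. There are no untreated mutant libraries here, so a difference between mutant and WT cells that was present before estradiol cannot be told apart from one that arose with it. The labels do not say how many mutant lines there were or whether the libraries of a group came from separate cultures. The p-values therefore measure the spread between these libraries, which may be technical.

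Glycolysis breaks glucose down to pyruvate and is the ATP source on which mature red cells, which have no mitochondria, depend. Red cells divert part of an intermediate through bisphosphoglycerate mutase into BPG, which binds hemoglobin and eases the release of oxygen. The pentose phosphate pathway branches off after the hexokinase step and yields NADPH, which protects red cells from oxidation, and ribose for nucleotides. Several steps are served by related genes, and the red cell forms include hexokinase 1 and the product of Pklr.

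The libraries held 20309085 to 43548387 expected counts. Libraries of a group correlated across genes with Pearson's r of 0.992 to 0.995. As a check of the labels, the log2 fold change of Alas2 was 9.74 for WT cells given estradiol against untreated WT cells and -9.16 for mutant against WT cells, both with estradiol. All 9 erythroid markers listed for the check were at 1 CPM or more in every group (CPM are read counts scaled to library size). The summed level of 6 mast cell markers was 0.439 to 0.613 CPM in mutant cells given estradiol and 5-ALA, 0.274 to 0.613 CPM in mutant cells given estradiol, 1.87 to 2.12 CPM in WT cells given estradiol and 134 to 150 CPM in untreated WT cells. In untreated WT cells nearly all of this sum was Cpa3, at 139 ± 8.23 CPM, against 1.28 ± 0.106 CPM in WT cells given estradiol. Cma1 went the other way, with 0 CPM in untreated WT cells and 0.684 ± 0.0365 CPM in WT cells given estradiol. Of the 6 mast cell markers, 4, 4, 3 and 4 were at 0, in the order of groups given for the sum. The summed level of 6 megakaryocyte markers was 698 to 715, 393 to 407, 1801 to 1827 and 175 to 182 CPM in the same order, with 1 marker at 0 in each group. With estradiol, most of this sum was Itgb3, an integrin gene, at 1784 ± 12.6 CPM in WT cells given estradiol and 87.9 ± 1.78 CPM in untreated WT cells, whereas Pf4 was at 2.37 ± 0.171 and 28.4 ± 2.09 CPM and Itga2b at 21.2 ± 0.466 and 60.8 ± 1.06 CPM in the same groups. Granulocyte, lymphocyte and fibroblast lists each summed to at most 1.84 CPM in any library. The part of these other-lineage transcripts in the results was not tested.

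Seen as levels per transcript length, the pathway genes took 0.755 ± 0.00584% of all TPM, an abundance scaled for transcript length and library size, in mutant cells given estradiol and 5-ALA. The share was 0.842 ± 0.0191% in mutant cells given estradiol, 0.683 ± 0.00107% in WT cells given estradiol and 1.54 ± 0.00655% in untreated WT cells (SD, n = 3 each, as for all values below given with ±). This share also moves with globin transcripts, which took 16.8 to 17.9%, 6.69 to 6.86%, 18.7 to 18.9% and 0.0756 to 0.084% of TPM in the same order of groups. With the globin genes left out of the total, the shares were 0.914, 0.904, 0.841 and 1.54%. In bulk RNA, fewer cells that express a gene and less of its RNA per cell cannot be told apart.

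The steps differed in how much transcript they held. Aldolase was the most abundant step in WT cells given estradiol, with 2068 ± 30.5 TPM, whereas untreated WT cells had 1318 ± 3.05 TPM. Gapdh, the dehydrogenase of the middle of the pathway, held 1393 ± 10.9 TPM in WT cells given estradiol and 5760 ± 14.4 TPM in untreated WT cells, where it was the most abundant step. Lactate dehydrogenase held 87.3 ± 1.30 TPM in WT cells given estradiol and 1803 ± 11.8 TPM in untreated WT cells. Hexokinase ran the other way, with 295 ± 3.21 TPM in WT cells given estradiol and 136 ± 2.19 TPM in untreated WT cells. Phosphofructokinase, the main control point, held 313 ± 2.66 and 291 ± 2.01 TPM in the same groups. With estradiol the steps from triose phosphate isomerase to lactate export, Gapdh excepted, thus lay below the hexokinase step, and in untreated cells all of them except lactate export lay above it.

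**Figure D1:**
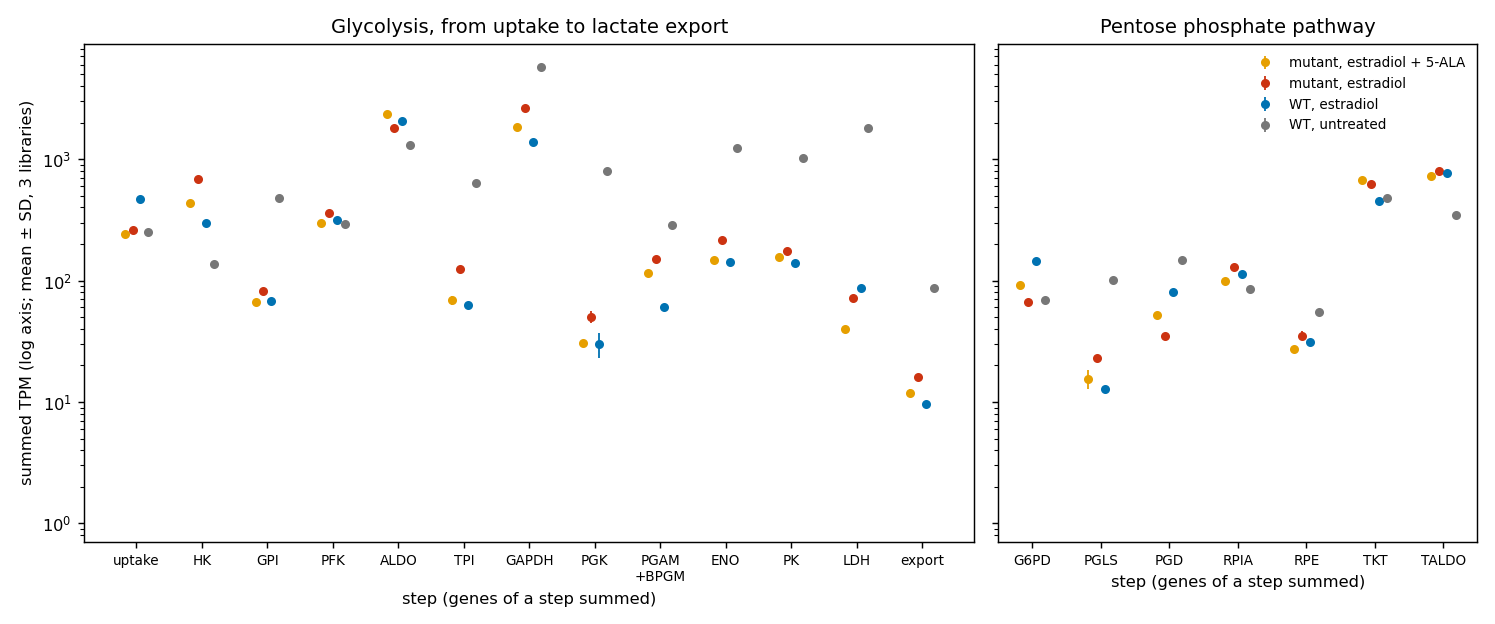
Summed TPM of the genes of each step (log axis, mean ± SD of 3 libraries) for glycolysis on the left and the pentose phosphate pathway on the right. Untreated WT cells lie highest at GPI and from TPI to lactate export, and below the other groups at hexokinase (136 TPM, against 295 TPM in WT cells given estradiol).

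How these genes respond when GATA-1 is switched on is the question of setting WT cells given estradiol against untreated ones. Hk1, Pfkfb2, Pfkfb4, Bpgm, G6pdx and Taldo1 rose. Hexokinase 2 and nearly the whole chain from triose phosphate isomerase to lactate export fell, several genes more than 8-fold. Of the 30 genes tested, 13 rose, 15 fell and 2 did not pass the test, Slc2a1 and Pklr. Over all 12115 genes, 43.3% rose and 46.4% fell (89.7% in either direction), so the number of pathway genes called was near the background. By 2-fold or more, 6 rose and 12 fell, beside 26.5% and 30.3% of all genes (56.8% in either direction). The median log2 fold change was -0.26 over the 30 genes and -0.03 over all genes, and the median absolute change was 1.35 beside 1.2. Calls are from the edgeR quasi-likelihood test at a Benjamini-Hochberg adjusted p below 0.05, and CPM values are scaled by TMM.

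**Figure D2:**
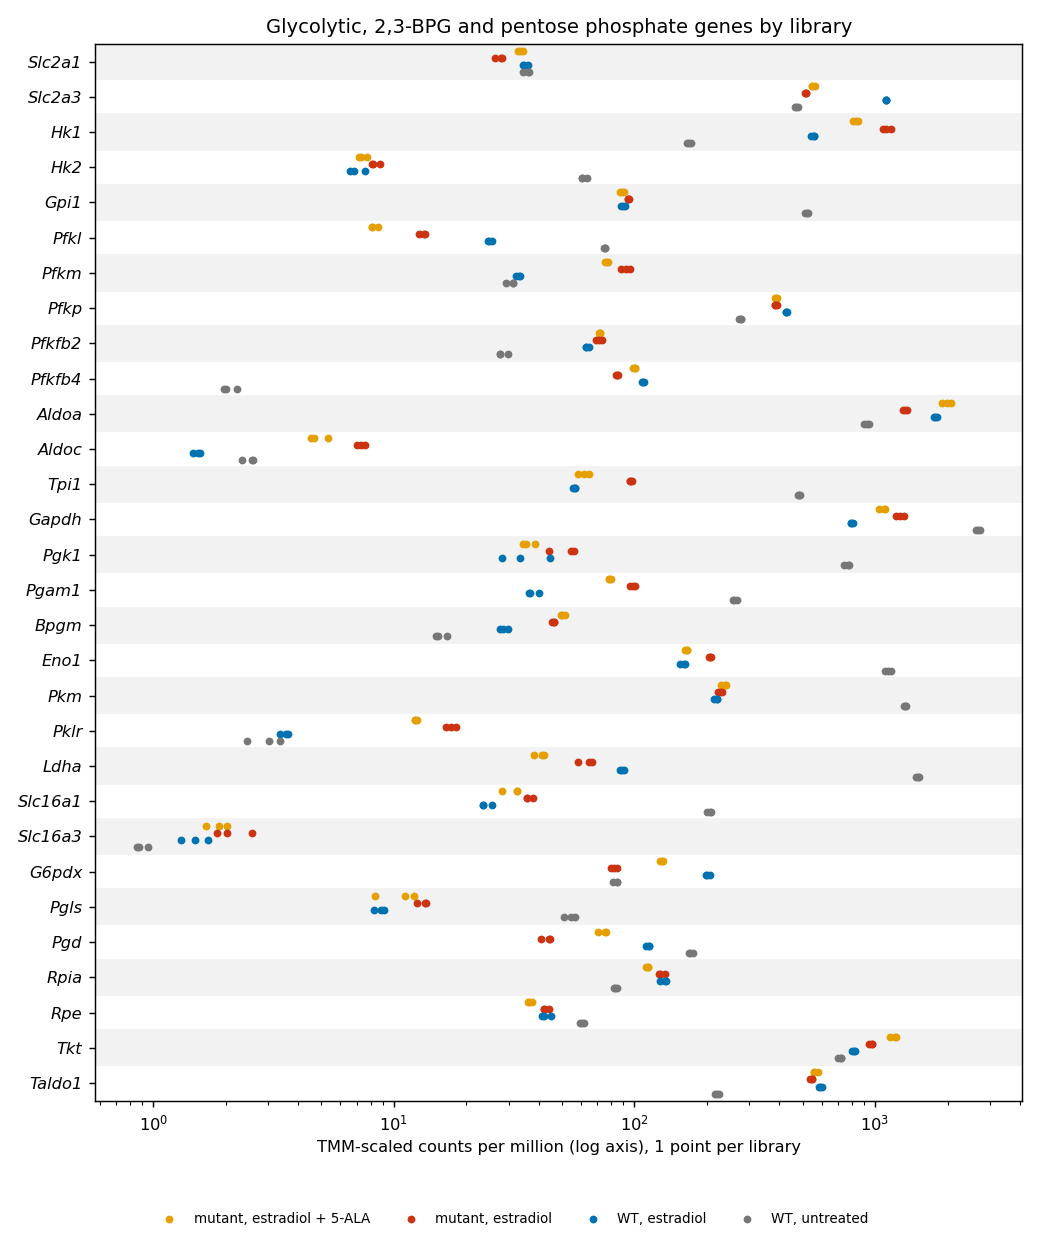
TMM-scaled CPM (log axis) of the 30 genes tested, 1 point per library, with the 4 groups on separate lines within each gene in the order of the legend. Pfkfb4 has 107 to 110.1 CPM in WT cells given estradiol against 1.98 to 2.22 CPM in untreated WT cells, and Ldha 87.2 to 90.5 against 1486 to 1527 CPM.

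Of the glucose transporter genes, Slc2a3, which encodes the high-affinity transporter GLUT3, rose. Slc2a3 had 1106, 1109 and 1113 CPM in WT cells given estradiol, against 465, 469 and 478 CPM in untreated WT cells. The groups were well apart, and the gene rose 2.36-fold (log2 1.24, SE 0.0224, adjusted p = 4.57e-29). Slc2a1, which encodes the widespread transporter GLUT1, had 34.6, 36.1 and 34.4 CPM in WT cells given estradiol, against 35.9, 34.5 and 36.3 CPM in untreated WT cells. These groups overlapped, and the log2 fold change was -0.03 (adjusted p = 0.565). Scaled by total counts alone it was -0.37 (adjusted p = 2.22e-09), and by limma on TPM it was -0.25 with a pseudocount of 1 and -0.26 with 0.1 (adjusted p = 0.000128 and 0.000135), all called lower. Scaling by total counts put the median of all genes at -0.37, against -0.03 with TMM.

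The 2 hexokinases, which trap glucose in the cell as glucose-6-phosphate, moved apart. Hk1 had 556, 544 and 557 CPM in WT cells given estradiol, against 172, 166 and 168 CPM in untreated WT cells. Every library with estradiol was higher than every untreated one, and Hk1 rose 3.28-fold (log2 1.71, SE 0.0273, adjusted p = 1.81e-30). Hk2, the inducible form of growing and insulin-responsive tissues, had 6.59, 6.85 and 7.56 CPM in WT cells given estradiol, against 63.3, 60.3 and 60.5 CPM in untreated WT cells. It fell 8.82-fold (log2 -3.14, SE 0.0598, adjusted p = 1.69e-28).

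Phosphofructokinase, which commits sugar to glycolysis, is built from subunits of 3 genes. Pfkp, the platelet type and the most abundant of them, rose by a log2 fold change of 0.63 to 429 ± 2.11 CPM in WT cells given estradiol, against 276 ± 2.95 CPM in untreated WT cells. Pfkl, the liver type, fell by 1.59 on the log2 scale to 25.0 ± 0.578 CPM in WT cells given estradiol, against 75.3 ± 0.457 CPM in untreated WT cells. Pfkm, the muscle type, was called higher by only 0.11 on the log2 scale (32.9 ± 0.667 against 30.6 ± 1.21 CPM, adjusted p = 0.0195), but was -0.23 when scaled by total counts alone, -0.18 by limma on log2(TPM + 1) and -0.19 by limma on log2(TPM + 0.1). Without untreated WT replicate 1 the call of Pfkm was lost (adjusted p = 0.185).

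Pfkfb4 and Pfkfb2 encode enzymes that set the level of fructose-2,6-bisphosphate, the activator of phosphofructokinase, and both rose. Pfkfb4 had 108, 110.1 and 107 CPM in WT cells given estradiol, against 2.22, 2.00 and 1.98 CPM in untreated WT cells. This 52.2-fold rise was the largest among the pathway genes (log2 5.71, SE 0.0503, adjusted p = 6.74e-37). Pfkfb2, a related enzyme, had 64.6, 63.1 and 62.9 CPM in WT cells given estradiol, against 27.7, 29.7 and 27.7 CPM in untreated WT cells. It rose 2.25-fold (log2 1.17, SE 0.0363). Of the annotated exon bases of Pfkfb2, 2.12% are shared with Yod1, which also rose (log2 2.14). A further gene, Gm29427, shares 17.4% of them and was at 0.142 ± 0.0722 CPM in WT cells given estradiol and 0 CPM in untreated WT cells. Reads in the shared parts may belong to either gene.

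Between these early steps and the triose phosphates, Gpi1 and aldolase differed. Gpi1, the isomerase of glucose-6-phosphate, fell by 2.53 on the log2 scale to 90.0 ± 1.72 CPM in WT cells given estradiol, against 519 ± 8.35 CPM in untreated WT cells. Aldoa, the aldolase of muscle and red cells, rose 1.93-fold to 1779 ± 34.3 CPM in WT cells given estradiol, against 923 ± 20.6 CPM in untreated WT cells (log2 0.95, SE 0.0273). Aldoc, the brain form, was rare and fell to 1.52 ± 0.0517 CPM in WT cells given estradiol, against 2.50 ± 0.148 CPM in untreated WT cells.

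From triose phosphate isomerase to lactate dehydrogenase, the main gene of each of 7 steps fell at least 3.35-fold, with a median log2 fold change of -2.83. Of all genes tested, 46.4% fell, 30.3% by 2-fold or more, and the median was -0.03. These 7 were not a group fixed in advance, and the run starts after Aldoa, which rose. They leave out the related genes Pklr, which was not called, and Bpgm, which rose. Setting them beside all genes is therefore a description and not a test. Tpi1 had 55.3, 56.7 and 56.5 CPM in WT cells given estradiol, against 479.7, 484 and 487 CPM in untreated WT cells. It interconverts the triose phosphates and fell 8.61-fold (log2 -3.11, SE 0.0288). Gapdh fell least, by 1.74 on the log2 scale, to 798 ± 8.66 CPM in WT cells given estradiol, against 2675 ± 60.1 CPM in untreated WT cells. Pgk1, the kinase of the first ATP-forming step, had 33.4, 44.4 and 28.3 CPM in WT cells given estradiol, against 777, 739 and 775 CPM in untreated WT cells. It fell 21.4-fold (log2 -4.42, SE 0.128, adjusted p = 6.39e-10), the largest fall among the pathway genes. Eno1, the main enolase, had 162, 161 and 155 CPM in WT cells given estradiol, against 1131, 1102 and 1161 CPM in untreated WT cells. It fell 7.10-fold (log2 -2.83, SE 0.0254). Pgam1, which moves the phosphate of phosphoglycerate, fell 6.95-fold to 37.7 ± 1.92 CPM in WT cells given estradiol, against 261 ± 4.64 CPM in untreated WT cells.

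The last steps fell as well. Pkm, the pyruvate kinase of most tissues, had 220.0, 214 and 221 CPM in WT cells given estradiol, against 1341, 1313 and 1334 CPM in untreated WT cells. It fell 6.09-fold (log2 -2.61, SE 0.0252), with the groups far apart. Pklr, the pyruvate kinase gene of red cells and liver, had 3.62, 3.37 and 3.56 CPM in WT cells given estradiol, against 3.35, 2.45 and 3.03 CPM in untreated WT cells. These groups lay close together without overlap, and the difference missed the threshold (log2 0.23, SE 0.109, adjusted p = 0.0675). It passed under 4 alternatives and without untreated WT replicate 1 or WT estradiol replicate 2, with log2 fold changes of 0.21 to 0.32. Ldha, which turns pyruvate into lactate, had 90.5, 88.8 and 87.2 CPM in WT cells given estradiol, against 1504, 1486 and 1527 CPM in untreated WT cells. It fell 16.9-fold (log2 -4.08, SE 0.0364, adjusted p = 4.92e-29). Slc16a1, which encodes the lactate transporter MCT1, had 23.4, 23.5 and 25.6 CPM in WT cells given estradiol, against 206, 199.7 and 208 CPM in untreated WT cells. It fell 8.51-fold, while Slc16a3, a second lactate transporter gene, stayed low at 1.5 ± 0.196 CPM in WT cells given estradiol and 0.893 ± 0.0493 CPM in untreated WT cells (log2 0.75, SE 0.206, adjusted p = 0.00131). The call of Slc16a3 was lost when scaled by total counts (log2 0.41, adjusted p = 0.0624).

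Bpgm, the source of BPG, rose against this chain. It had 28.3, 29.8 and 27.6 CPM in WT cells given estradiol, against 15.2, 14.9 and 16.6 CPM in untreated WT cells. Every library with estradiol was above every untreated one, and the rise was 1.83-fold (log2 0.87, SE 0.0485, adjusted p = 1.74e-16).

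Of the 7 pentose phosphate genes, 4 were higher and 3 lower, beside 43.3% higher and 46.4% lower of all genes tested. G6pdx, the glucose-6-phosphate dehydrogenase of the entry step, had 201, 206 and 199 CPM in WT cells given estradiol, against 84.4, 81.1 and 84.6 CPM in untreated WT cells. It rose 2.42-fold (log2 1.28, SE 0.0269). Pgls and Pgd, the next oxidative steps, fell by 2.63 and 0.59 on the log2 scale, Pgls to 8.73 ± 0.446 CPM in WT cells given estradiol, against 54.1 ± 2.91 CPM in untreated WT cells. Taldo1, the transaldolase that returns sugars to glycolysis, had 599, 589 and 583 CPM in WT cells given estradiol, against 217, 220.0 and 225 CPM in untreated WT cells. It rose 2.68-fold (log2 1.42, SE 0.0238). Of the isomerases of the branch, Rpia rose (log2 0.66) and Rpe fell (log2 -0.50). Tkt, the transketolase, was called higher by 0.19 on the log2 scale but was -0.16 when scaled by total counts alone and -0.08 by limma on TPM with either pseudocount.

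**Figure D3:**
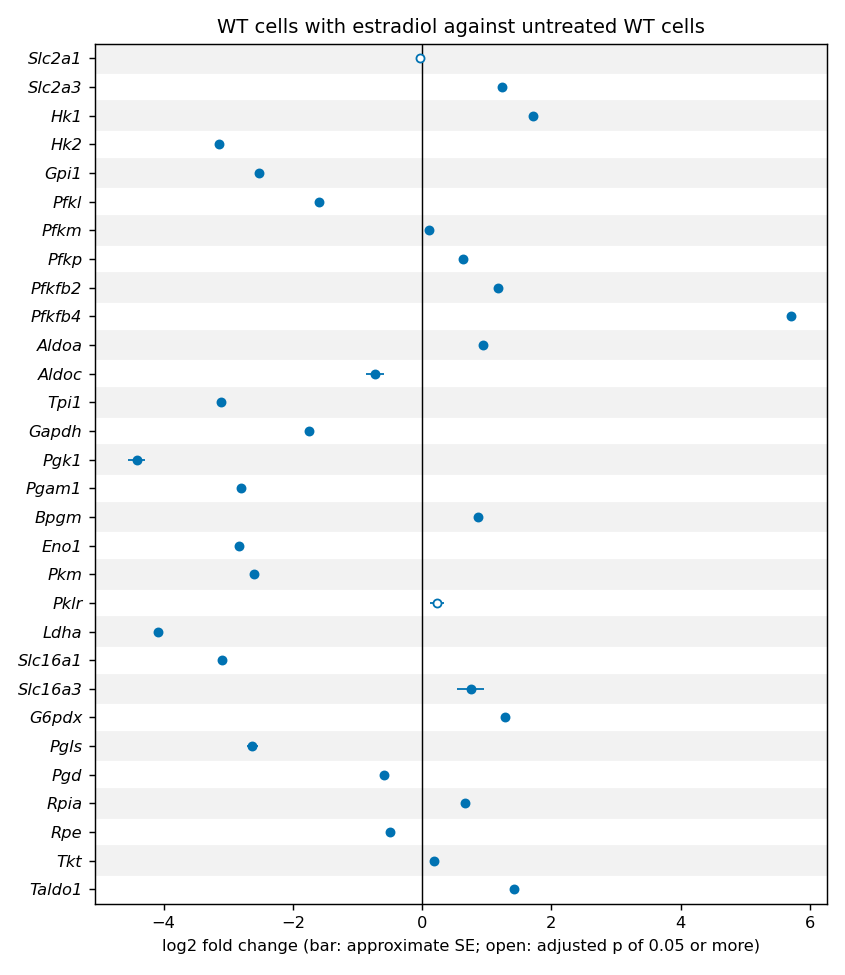
Log2 fold change of each gene tested, WT cells given estradiol against untreated WT cells, in pathway order (horizontal bar, approximate SE, often hidden by the point). Open points mark Slc2a1 and Pklr, which did not pass the test. Pfkfb4 (5.71) and Pgk1 (-4.42) are the extremes, and the small rises of Pfkm (0.11) and Tkt (0.19) turn negative when libraries are scaled by total counts.

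Within the steps served by several genes, the mix of transcripts per length shifted. With 3 libraries against 3, an exact two-sided permutation test cannot go below p = 0.10. It gave 0.10 for each share compared in this paragraph, that is, no library of one group reached into the other. Hk1 held 99.3 ± 0.0200% of hexokinase TPM in WT cells given estradiol and 84.8 ± 0.296% in untreated WT cells. Pfkp held 90.7 ± 0.306% of phosphofructokinase TPM in WT cells given estradiol and 79.5 ± 0.284% in untreated WT cells. Pfkl held 3.71 ± 0.311% in WT cells given estradiol and 13.6 ± 0.171% in untreated WT cells. Pfkfb4 was 56.0 ± 0.236% of the PFKFB transcripts in WT cells given estradiol and 4.98 ± 0.559% in untreated WT cells. Bpgm and Pgam1 encode related enzymes of different reactions. Bpgm held 46.9 ± 1.78% of their summed TPM in WT cells given estradiol and 6.35 ± 0.362% in untreated WT cells, a shift made by both the rise of Bpgm and the fall of Pgam1. Pklr held 1.73 ± 0.258% of pyruvate kinase TPM in WT cells given estradiol and 0.191 ± 0.0284% in untreated WT cells, although Pklr itself did not pass the test and only Pkm fell. The gene tables do not separate the transcripts of 1 gene, so the M1 and M2 forms of Pkm, or the red cell and liver forms of Pklr, are not told apart.

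**Figure D4:**
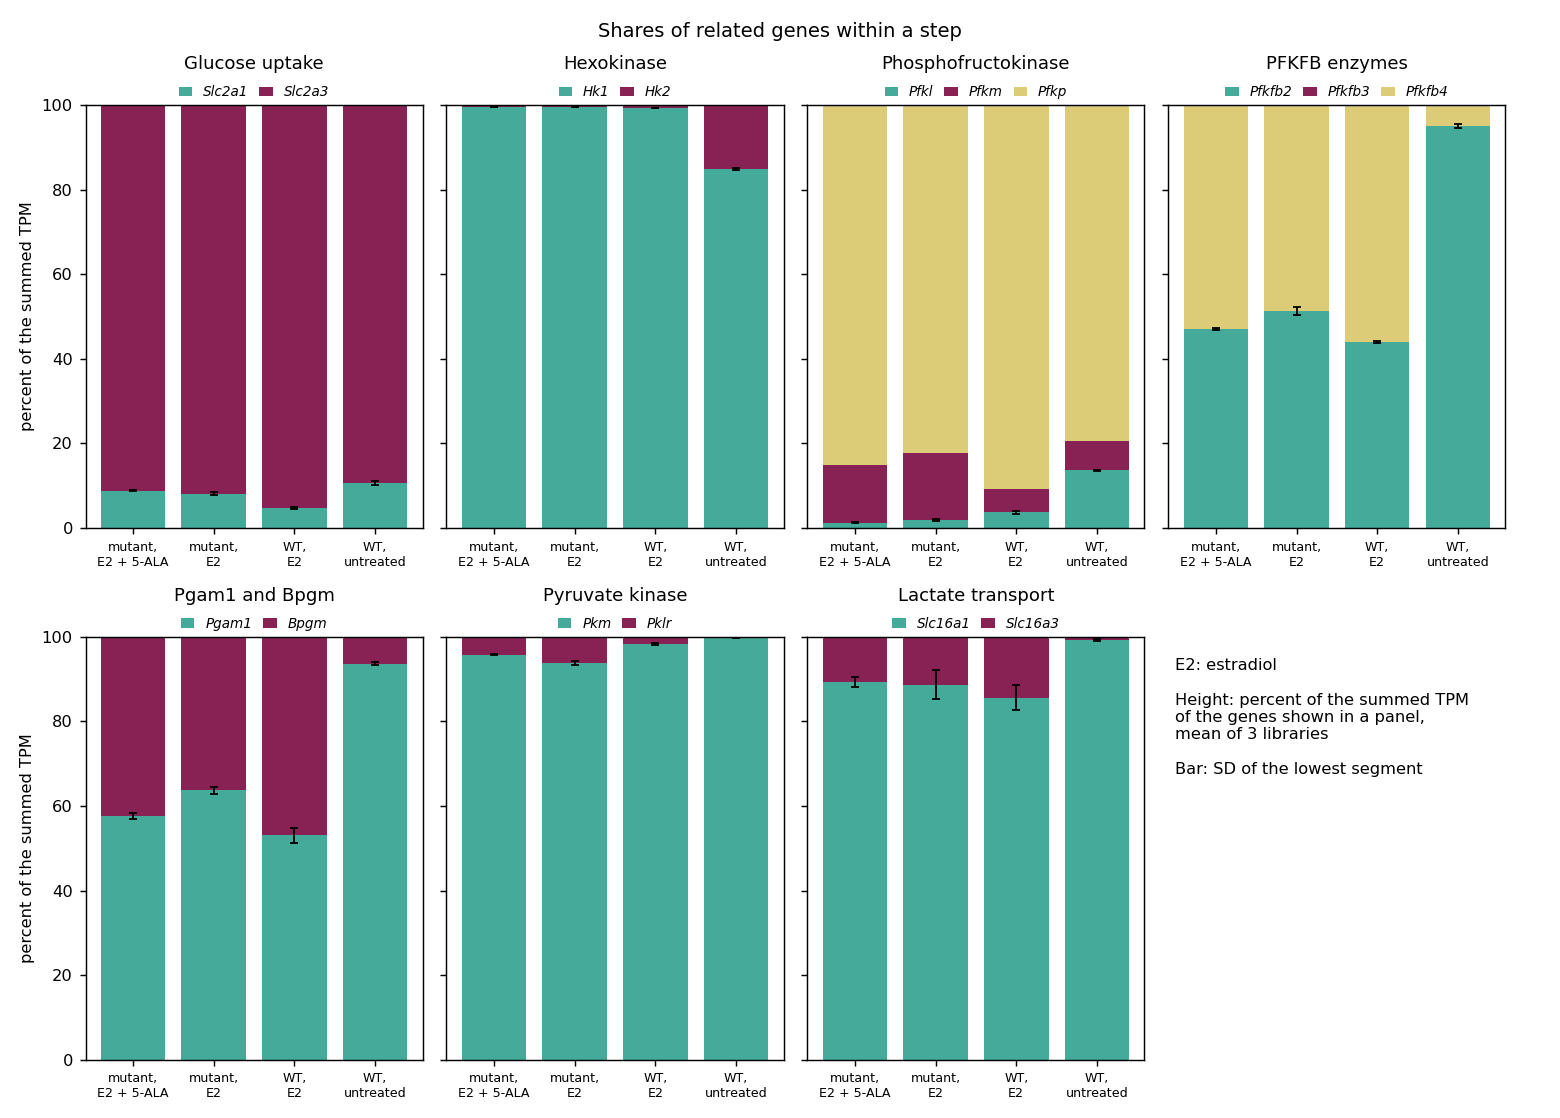
Percent of the summed TPM of the genes of a step that each gene holds (mean of 3 libraries, bar for the SD of the lowest segment), with groups from left to right as mutant with estradiol and 5-ALA, mutant with estradiol, WT with estradiol and untreated WT. Bpgm takes 42.4, 36.3, 46.9 and 6.35% of the Pgam1 and Bpgm transcripts in this order, and Pfkfb4 52.8, 48.7, 56.0 and 4.98% of the PFKFB transcripts.

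Sequence before the starts of some of these genes is shown because the gene pairs above part ways with estradiol, namely Hk1 from Hk2, Bpgm from Pgam1 and Pklr from Pkm. RefSeq windows of 250 bases before an annotated start (GRCm38.p6) were found for 32 of the 33 genes, in 48 windows. Only windows free of annotated exons are printed, which leaves out those of Bpgm and Pkm and a further window each of Hk1 and Pklr. Ldha was added after its values were seen. Letters matching AGATAA or TGATAA (bases bound by GATA factors), CACGTG (the E-box of MYC and related factors) or TGACNNNGC (the core of the antioxidant response element), on either strand, are in capitals, and all sequences run 5′ to 3′ along the gene's strand.
Pklr, chr3:89135892-89136141, plus strand: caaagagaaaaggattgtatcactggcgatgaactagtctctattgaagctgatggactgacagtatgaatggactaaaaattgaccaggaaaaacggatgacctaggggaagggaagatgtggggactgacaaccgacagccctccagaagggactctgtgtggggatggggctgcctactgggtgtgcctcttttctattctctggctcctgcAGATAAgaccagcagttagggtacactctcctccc
Pgam1, chr19:41911621-41911870, plus strand: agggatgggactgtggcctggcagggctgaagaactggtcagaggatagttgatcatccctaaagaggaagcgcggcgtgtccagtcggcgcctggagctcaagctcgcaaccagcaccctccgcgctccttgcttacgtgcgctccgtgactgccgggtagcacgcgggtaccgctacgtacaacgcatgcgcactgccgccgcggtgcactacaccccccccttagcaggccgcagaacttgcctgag
Hk1, chr10:62379909-62380158, minus strand: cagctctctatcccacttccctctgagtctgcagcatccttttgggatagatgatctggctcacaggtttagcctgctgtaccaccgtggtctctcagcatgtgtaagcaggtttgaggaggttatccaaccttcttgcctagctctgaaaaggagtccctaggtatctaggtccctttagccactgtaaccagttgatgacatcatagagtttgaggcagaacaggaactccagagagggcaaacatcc
Hk2, chr6:82774455-82774704, minus strand: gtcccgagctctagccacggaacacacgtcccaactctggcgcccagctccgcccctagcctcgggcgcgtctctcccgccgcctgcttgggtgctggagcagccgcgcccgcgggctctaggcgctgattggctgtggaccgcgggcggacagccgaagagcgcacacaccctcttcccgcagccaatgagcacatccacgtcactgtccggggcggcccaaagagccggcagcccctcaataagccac
Ldha, chr7:46845554-46845803, plus strand: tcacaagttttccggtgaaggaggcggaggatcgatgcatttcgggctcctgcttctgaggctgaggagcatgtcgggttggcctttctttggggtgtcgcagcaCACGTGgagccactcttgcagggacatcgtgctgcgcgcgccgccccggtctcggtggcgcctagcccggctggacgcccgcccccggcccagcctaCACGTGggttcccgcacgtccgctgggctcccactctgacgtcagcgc

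The Pklr window, which lies before the more upstream of its 2 starts in the table, holds AGATAA with its first base at position 216 counted from the window's 5′ end. The Ldha window holds CACGTG at positions 106 and 203. No searched letters occur in the windows shown for Pgam1, Hk1 and Hk2. The Hk1 window shown lies before the more upstream of its 2 starts in the table. The window before its other start, not printed, holds TGACNNNGC at position 242. AGATAA or TGATAA occurs in 9 of the 48 windows, of 7 genes (Aldoa, Pfkfb2, Pfkfb4, Pfkm, Pklr, Pkm and Slc16a1), and in 16.6% of all 32851 windows in the table. CACGTG occurs in 5 of the 48 windows, of 5 genes (Ldha, Pfkfb2, Pfkfb3, Pfkm and Slc16a1) and in 6.02% of all windows. TGACNNNGC occurs in 4 of the 48 windows, of 4 genes (Aldoa, G6pdx, Hk1 and Slc16a1) and in 10.2% of all windows. In Slc16a1 the CACGTG match shares bases with the TGACNNNGC match. Genes with several windows have more chances of a match, and the tables do not show which start was used. These matches are descriptions of letters and not of binding.

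The other comparisons were made among cells with estradiol. Mutant against WT cells gives what differs between cells with mutated Alas2 cis-elements and WT cells. Differences of the mutant cells unrelated to Alas2 cannot be told apart here from those that go with its loss. Mutant cells with 5-ALA against mutant cells without it asks what differs when the precursor is supplied. Mutant cells with 5-ALA against WT cells gives what remains. These comparisons share libraries pairwise, so their values are set side by side and no overlap between them is counted.

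In mutant cells given estradiol, Pklr, Pfkm, Pgam1 and Hk1, for pyruvate kinase, phosphofructokinase, phosphoglycerate mutase and hexokinase, were higher than in WT cells, and the oxidative pentose phosphate genes G6pdx and Pgd and the transporter Slc2a3 were lower. Of the 30 genes, 18 were higher, 10 lower and 2 not called (Rpia and Rpe), beside 35.1% higher and 33.6% lower of all genes tested (68.8% in either direction). By 2-fold or more 5 were higher and 3 lower, beside 5.18% and 6.6% of all genes (11.8% in either direction). Leaving out 1 library at a time gave 4 to 5 higher, with Hk1 at 0.99 to 1.07 on the log2 scale. The median log2 fold change was 0.20 over these genes and -0.01 over all genes, and the median absolute change was 0.53 beside 0.35. Of all genes called, 51.1% were higher, but 66.5% when scaled by total counts alone, which put the median of all genes at 0.14, and 70.7% by limma on log2(TPM + 1), which put it at 0.125.

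In mutant cells with 5-ALA against mutant cells without it, 9 genes were higher, 17 lower and 4 not called (Pfkp, Pfkfb2, Pkm and Slc16a3), beside 21.6% higher and 21% lower of all genes (42.6% in either direction). None reached 2-fold, where 1.77% of all genes were higher and 0.537% lower (2.31% in either direction). The median log2 fold change was -0.20 over these genes and 0.01 over all genes and the median absolute change was 0.28 beside 0.16. The direction of small changes here rests on the scaling: scaled by total counts alone, the median of all genes was -0.09 and 23.6% of called genes were higher, and by limma on log2(TPM + 1) the median was -0.15 and 12.4% were higher, instead of 50.7%.

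In mutant cells given estradiol and 5-ALA against WT cells given estradiol, 14 genes were higher, 10 lower and 6 not called, beside 33.3% and 29% of all genes (62.3% in either direction). The 6 were Slc2a1, Hk2, Gpi1, Pgk1, Eno1 and Slc16a3. By 2-fold or more 4 were higher and 3 lower, beside 3.59% and 4.18% of all genes (7.77% in either direction). Leaving out 1 library at a time gave 2 to 3 lower, with Slc2a3 at -1.02 to -0.985 on the log2 scale. The median log2 fold change was 0.10 over these genes and 0.01 over all genes.

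**Figure D5:**
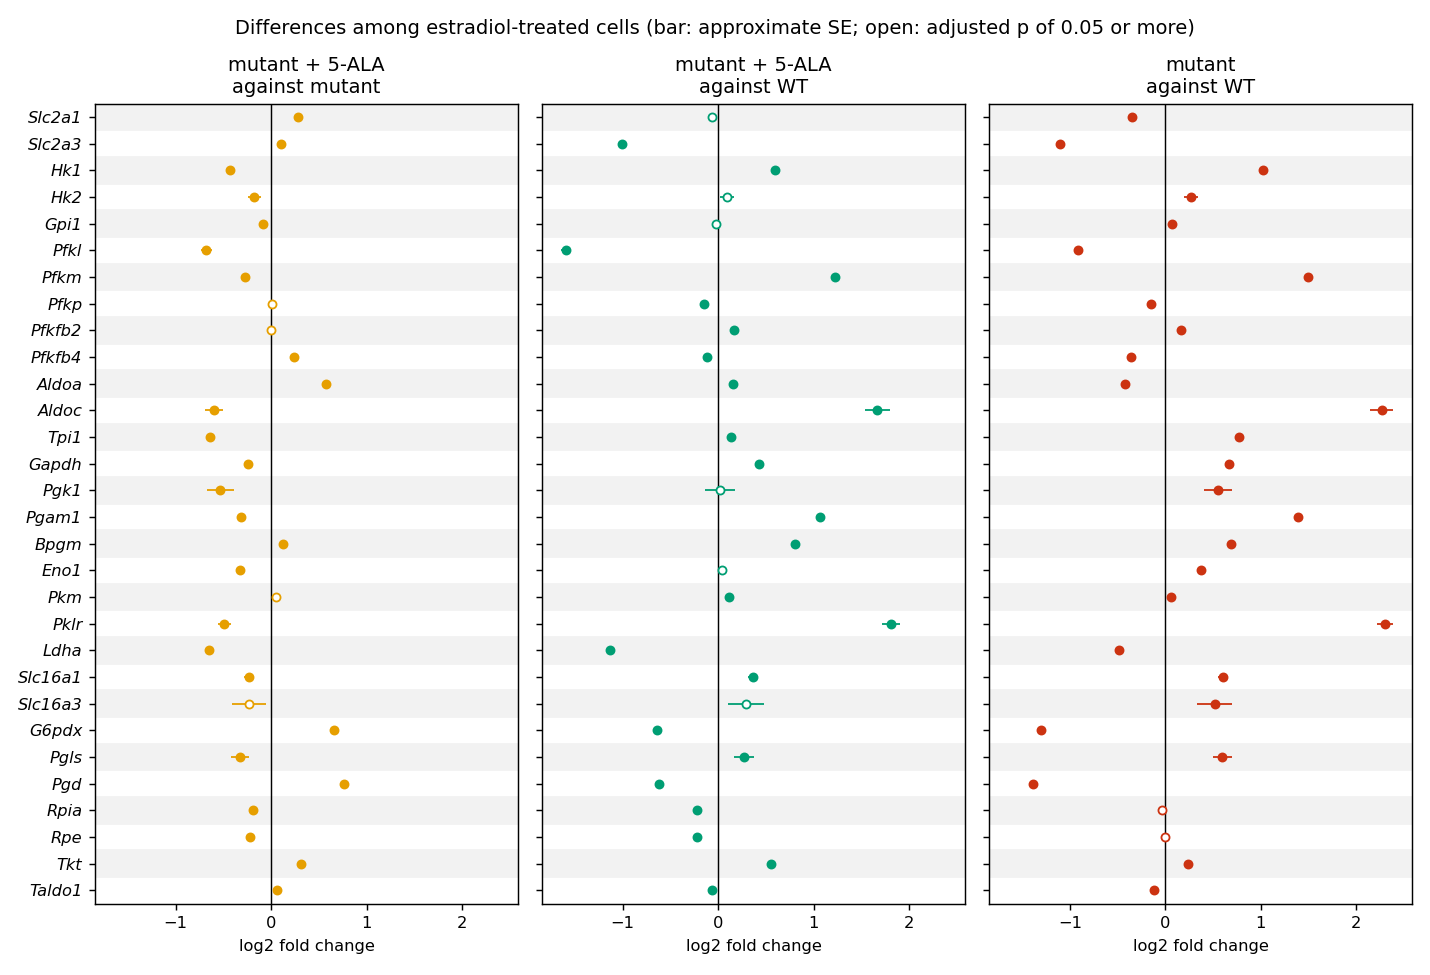
Log2 fold changes of the 30 genes in the 3 comparisons among estradiol-treated cells, which share libraries (bar, approximate SE; open point, not called). In mutant against WT cells Pklr (2.30) is highest and Pgd (-1.39) lowest. Points near 0 change sign under other scalings, among them Pfkp and Taldo1 in mutant against WT cells, and Slc2a3, Bpgm and Taldo1 in mutant cells with 5-ALA against mutant cells.

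Pklr stood out for the size of its difference. It had 12.3, 12.5 and 12.3 CPM in mutant cells given estradiol and 5-ALA, 17.2, 18.2 and 16.5 CPM in mutant cells given estradiol, and 3.62, 3.37 and 3.56 CPM in WT cells given estradiol. No groups overlapped, with WT cells lowest and mutant cells without 5-ALA highest. Pklr was 4.93-fold higher in mutant than in WT cells (log2 2.30, SE 0.0865, adjusted p = 6.91e-20), lower with 5-ALA than without it (log2 -0.49, SE 0.0708, adjusted p = 1.56e-06), and 3.51-fold higher in mutant cells with 5-ALA than in WT cells (log2 1.81). Its share of pyruvate kinase TPM was 4.30 ± 0.0998% in mutant cells given estradiol and 5-ALA, 6.24 ± 0.473% in mutant cells given estradiol and 1.73 ± 0.258% in WT cells given estradiol. Exons of Hcn3 cover 22.0% of the annotated exon bases of Pklr, and Hcn3 was counted at 0.478 ± 0.0151, 0.773 ± 0.197 and 0.282 ± 0.0396 CPM in the same groups. Pkm had 229.9, 237 and 241 CPM in mutant cells given estradiol and 5-ALA, 223, 226 and 232 CPM in mutant cells given estradiol, and 220.0, 214 and 221 CPM in WT cells given estradiol. Its differences were small (log2 0.06 for mutant against WT cells, adjusted p = 0.0436). This call was lost by the DESeq2 Wald test (adjusted p = 0.22) and without WT estradiol replicate 2 or mutant estradiol replicate 2 or 3.

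The phosphofructokinase genes differed in opposite directions. Pfkm had 77.8, 75.7 and 76.8 CPM in mutant cells given estradiol and 5-ALA, 88.3, 92.5 and 96.0 CPM in mutant cells given estradiol, and 32.1, 33.2 and 33.4 CPM in WT cells given estradiol. It was 2.81-fold higher in mutant than in WT cells (log2 1.49, SE 0.0375) and lower with 5-ALA than without it (log2 -0.27). Pfkl had 8.11, 8.11 and 8.6 CPM in mutant cells given estradiol and 5-ALA, 12.7, 13.5 and 13.4 CPM in mutant cells given estradiol, and 24.6, 24.8 and 25.7 CPM in WT cells given estradiol. Mutant cells were below WT cells (log2 -0.91, SE 0.0484) and lower again with 5-ALA (log2 -0.68, SE 0.0570), so that mutant cells with 5-ALA lay 3.01-fold below WT cells. Pfkp differed by -0.15 on the log2 scale between mutant and WT cells, and this was 0.00 when scaled by total counts and 0.05 by limma on TPM. By share of phosphofructokinase TPM, Pfkm held 13.6 ± 0.106% in mutant cells given estradiol and 5-ALA, 15.8 ± 0.524% in mutant cells given estradiol and 5.61 ± 0.181% in WT cells given estradiol.

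Hk1 had 813, 831 and 851 CPM in mutant cells given estradiol and 5-ALA, 1082, 1112 and 1162 CPM in mutant cells given estradiol, and 556, 544 and 557 CPM in WT cells given estradiol. It was 2.03-fold higher in mutant than in WT cells (log2 1.02, SE 0.0261, adjusted p = 5.84e-24) and lower with 5-ALA than without it (log2 -0.43, SE 0.0257). Hk2 stayed low, with 7.32, 7.15 and 7.72 CPM in mutant cells given estradiol and 5-ALA, 8.12, 8.22 and 8.73 CPM in mutant cells given estradiol, and 6.59, 6.85 and 7.56 CPM in WT cells given estradiol. It was higher in mutant than in WT cells by 0.27 on the log2 scale, and its difference with 5-ALA lay at the threshold (log2 -0.18, adjusted p = 0.0485) and was lost on leaving out mutant estradiol replicate 2 or 3, or mutant 5-ALA replicate 1 or 2.

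Of the transporters, Slc2a3 had 560.2, 546 and 549 CPM in mutant cells given estradiol and 5-ALA, 517, 509.6 and 518 CPM in mutant cells given estradiol, and 1106, 1109 and 1113 CPM in WT cells given estradiol. Both mutant groups lay far below WT cells, by 2.16-fold without 5-ALA (log2 -1.11, SE 0.0223) and by 2.01-fold with it (log2 -1.01). The difference with 5-ALA was called at 0.10 on the log2 scale, but was 0.00 scaled by total counts (-0.0014) and -0.11 by limma on log2(TPM + 1). Slc2a1 had 34.5, 33.4 and 32.7 CPM in mutant cells given estradiol and 5-ALA, 26.2, 27.8 and 28.3 CPM in mutant cells given estradiol, and 34.6, 36.1 and 34.4 CPM in WT cells given estradiol. Mutant cells without 5-ALA were the low group (log2 -0.35 against WT cells, and 0.28 for 5-ALA against none), and mutant cells with 5-ALA overlapped WT cells. By limma on log2(TPM + 1) both calls were lost (log2 -0.09 and 0.01).

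In the lower chain, Tpi1 had 61.9, 58.1 and 64.7 CPM in mutant cells given estradiol and 5-ALA, 95.8, 95.5 and 97.4 CPM in mutant cells given estradiol, and 55.3, 56.7 and 56.5 CPM in WT cells given estradiol. Mutant cells without 5-ALA were the high group, by a log2 fold change of 0.78 against WT cells, and Tpi1 was lower with 5-ALA than without it (log2 -0.64). Pgam1 had 79.9, 78.6 and 78.6 CPM in mutant cells given estradiol and 5-ALA, 95.4, 98.4 and 101 CPM in mutant cells given estradiol, and 36.7, 36.6 and 40.0 CPM in WT cells given estradiol. It was 2.62-fold higher in mutant than in WT cells (log2 1.39, SE 0.0337) and still 2.10-fold higher with 5-ALA. Gapdh averaged 1074 ± 34.6 CPM in mutant cells given estradiol and 5-ALA, 1271 ± 43.8 CPM in mutant cells given estradiol and 798 ± 8.66 CPM in WT cells given estradiol. Eno1 averaged 164 ± 1.48, 206 ± 2.14 and 159 ± 3.79 CPM in the same order, higher in mutant than in WT cells (log2 0.37) and lower with 5-ALA than without it (log2 -0.33).

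Ldha differed from that chain. It had 41.5, 38.1 and 42.1 CPM in mutant cells given estradiol and 5-ALA, 58.5, 66.4 and 64.9 CPM in mutant cells given estradiol, and 90.5, 88.8 and 87.2 CPM in WT cells given estradiol. Ldha was lower in mutant cells than in WT cells (log2 -0.48, SE 0.0381, adjusted p = 1.93e-10) and lower with 5-ALA than without it (log2 -0.65, SE 0.0411, adjusted p = 1.98e-11), and so 2.19-fold lower in mutant cells with 5-ALA than in WT cells. Slc16a1, the lactate transporter gene, was higher in mutant than in WT cells (log2 0.60) and lower with 5-ALA than without it (log2 -0.24), and Slc16a3 was below 3 CPM throughout (log2 0.52 for mutant against WT cells, not called by DESeq2, by limma, or without mutant estradiol replicate 3). Aldoa, upstream, had 1900.1, 1996 and 2061 CPM in mutant cells given estradiol and 5-ALA, 1305, 1327 and 1361 CPM in mutant cells given estradiol, and 1817, 1751 and 1767 CPM in WT cells given estradiol. Mutant cells without 5-ALA were the low group (log2 -0.42 against WT cells), and Aldoa was 1.49-fold higher with 5-ALA than without it (log2 0.58, SE 0.0271). Aldoc was rare but 4.81-fold higher in mutant than in WT cells, at 7.31 ± 0.300 CPM in mutant cells given estradiol and 1.52 ± 0.0517 CPM in WT cells given estradiol.

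Bpgm had 51.2, 49.8 and 49.3 CPM in mutant cells given estradiol and 5-ALA, 46.4, 46.2 and 45.5 CPM in mutant cells given estradiol, and 28.3, 29.8 and 27.6 CPM in WT cells given estradiol. Both mutant groups were above WT cells, 1.61-fold without 5-ALA (log2 0.69, SE 0.0430, adjusted p = 1.44e-14) and 1.75-fold with it (log2 0.81). The step between the mutant groups was 0.12 on the log2 scale (adjusted p = 0.0146), but -0.14 by limma on log2(TPM + 1). It was not called when scaled by total counts (adjusted p = 0.706), by the DESeq2 Wald test (adjusted p = 0.0641) or without mutant estradiol replicate 3 or mutant 5-ALA replicate 1 or 2. Pfkfb4 had 98.9, 100.4 and 100.1 CPM in mutant cells given estradiol and 5-ALA, 84.7, 85.7 and 83.8 CPM in mutant cells given estradiol, and 108, 110.1 and 107 CPM in WT cells given estradiol. Mutant cells were below WT cells (log2 -0.36), and Pfkfb4 was higher with 5-ALA than without it (log2 0.24), the last not called by limma on log2(TPM + 1) (log2 0.03).

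The NADPH-forming steps of the pentose phosphate pathway were low in mutant cells. G6pdx had 131, 128 and 129.9 CPM in mutant cells given estradiol and 5-ALA, 84.3, 82.2 and 79.7 CPM in mutant cells given estradiol, and 201, 206 and 199 CPM in WT cells given estradiol. It was 2.47-fold lower in mutant than in WT cells (log2 -1.30, SE 0.0272, adjusted p = 4.19e-26), 1.58-fold higher with 5-ALA than without it (log2 0.66, SE 0.0279, adjusted p = 8.07e-18), and lower in mutant cells with 5-ALA than in WT cells (log2 -0.64). Pgd had 75.5, 70.3 and 75.9 CPM in mutant cells given estradiol and 5-ALA, 41.0, 44.2 and 44.7 CPM in mutant cells given estradiol, and 115, 115 and 112 CPM in WT cells given estradiol. It was 2.62-fold lower in mutant than in WT cells (log2 -1.39, SE 0.0342), 1.70-fold higher with 5-ALA than without it (log2 0.76, SE 0.0355), and lower in mutant cells with 5-ALA than in WT cells (log2 -0.63). For both genes the 3 groups did not overlap and mutant cells with 5-ALA lay between the others. Pgls, the lactonase between these dehydrogenases, was higher in mutant than in WT cells (log2 0.60) and lower with 5-ALA than without it (log2 -0.33).

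The sugar-exchanging steps differed less. Tkt had 1153, 1206 and 1216 CPM in mutant cells given estradiol and 5-ALA, 942, 970.5 and 969 CPM in mutant cells given estradiol, and 823, 804 and 819 CPM in WT cells given estradiol. It was higher in mutant than in WT cells (log2 0.24) and higher again with 5-ALA than without it (log2 0.31), 1.46-fold above WT cells in all. Taldo1 averaged 566 ± 10.5 CPM in mutant cells given estradiol and 5-ALA, 544 ± 7.08 CPM in mutant cells given estradiol and 591 ± 7.94 CPM in WT cells given estradiol. Its differences were at most 0.12 on the log2 scale and turned round under other scalings (0.03 scaled by total counts for mutant against WT cells, and -0.04 for 5-ALA against none). Rpia and Rpe had log2 fold changes of -0.03 and 0.00 between mutant and WT cells, but were called higher when scaled by total counts (log2 0.12 and 0.15) and by limma on log2(TPM + 1) (log2 0.19 and 0.17). Both were lower with 5-ALA than without it (log2 -0.19 and -0.22).

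Some of these values can hold reads of other genes. Exons of Ikbkg, on the opposite strand, cover 13.6% of the annotated exon bases of G6pdx, and Ikbkg had log2 fold changes of 2.44 with estradiol, -1.50 in mutant against WT cells and 0.80 with 5-ALA, the same directions as G6pdx. Whether strand was used in counting is not given in the sources used here, so reads of the shared bases cannot be assigned. Pgk1 shares reads with its retrogene Pgk1-rs7, a near-identical copy. Pgk1 alone spread widely, with 35.4, 34.6 and 38.5 CPM in mutant cells given estradiol and 5-ALA, 44.3, 54.7 and 55.8 CPM in mutant cells given estradiol, and 33.4, 44.4 and 28.3 CPM in WT cells given estradiol. Added to Pgk1-rs7, the values were 41.6, 40.7 and 41.9 CPM in mutant cells given estradiol and 5-ALA, 62.6, 59.7 and 59.4 CPM in mutant cells given estradiol, 41.8, 45.2 and 42.6 CPM in WT cells given estradiol, and 919, 907 and 950.4 CPM in untreated WT cells. The sums of mutant cells without 5-ALA lay above both other estradiol groups, whereas Pgk1 alone overlapped between mutant and WT cells (log2 0.55, SE 0.148, adjusted p = 0.00936, and 0.0762 when only these groups were fitted). Its difference with 5-ALA (log2 -0.53, adjusted p = 0.0179) was lost on leaving out mutant estradiol replicate 2 or 3, or mutant 5-ALA replicate 1 or 2. Glycolytic genes such as Gapdh also have many processed pseudogenes, of which few are in the tables (216 annotated pseudogenes, of 13523 in GENCODE M21), and reads from unlisted ones may be counted at the parent gene. Exons of Fam129c, on the same strand, cover 20.6% of the annotated exon bases of Pgls. Fam129c also fell with estradiol (log2 -1.96), to 2.26 ± 0.421 CPM in WT cells given estradiol, against 8.64 ± 0.51 CPM in untreated WT cells. Kansl1l covers 17.9% of the exon bases of Rpe and rose with estradiol (log2 1.66), whereas Rpe fell. In all, 11 of the 33 genes share exon bases with another gene in the tables.

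Genes around these pathways were taken from 5 further lists. Among the 19 tested of 21 genes of side branches such as glycogen, galactose, glycerol phosphate and nucleotide precursor metabolism, 15 fell and 4 rose in WT cells given estradiol against untreated WT cells, with a median log2 fold change of -1.19 beside -0.03 over all genes. Over all genes 43.3% rose and 46.4% fell, the background for the counts of these lists. Galk1, the galactokinase, fell to 1.52 ± 0.0175 CPM in WT cells given estradiol, against 34.0 ± 1.24 CPM in untreated WT cells. Pgm2l1, which makes glucose-1,6-bisphosphate, rose to 477 ± 3.30 CPM in WT cells given estradiol, against 34.1 ± 2.01 CPM in untreated WT cells (log2 3.80). Of the 13 tested of 14 genes for pyruvate entry into mitochondria, 8 fell and 5 rose, with a median of -0.97. This list holds the carrier genes Mpc1 and Mpc2, and genes of pyruvate dehydrogenase and of its regulators. Both carrier genes rose (log2 0.92 for Mpc1 and 0.98 for Mpc2). Pdha1, a subunit of pyruvate dehydrogenase, fell to 23.1 ± 2.26 CPM in WT cells given estradiol, against 211 ± 4.36 CPM in untreated WT cells. The kinases that inhibit this enzyme moved apart: Pdk1 fell (log2 -3.18) and Pdk2 rose to 73.6 ± 1.73 CPM in WT cells given estradiol, against 1.75 ± 0.292 CPM in untreated WT cells (log2 5.43).

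Of the 18 tested of 21 regulators of glycolytic genes, 13 rose and 3 fell in WT cells given estradiol relative to untreated WT cells, with a median log2 fold change of 0.82 (all genes, 43.3% rose and 46.4% fell). Foxo3, a transcription factor of red cell oxidative defence, rose to 1447 ± 20.6 CPM in WT cells given estradiol, against 115 ± 2.72 CPM in untreated WT cells (log2 3.65). Mxi1, an antagonist of MYC, rose by a log2 fold change of 2.85, and Txnip, an inhibitor of glucose uptake, by 2.42. Of the 10 tested of 13 hypoxia-responsive genes outside glycolysis, 7 rose and 3 fell (median 0.76), with Kdm3a, a histone demethylase, at 2.79 and Mif, a cytokine, at -3.22 on the log2 scale. Of the 7 tested of 25 paralogs at the same steps, 3 rose, 1 fell and 3 were not called (median 0.39), with Slc2a9, a urate and sugar transporter gene, at 28.0 ± 1.46 CPM in WT cells given estradiol and 6.76 ± 0.141 CPM in untreated WT cells.

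Among the estradiol groups the changes were smaller. In mutant against WT cells, where 35.1% of all genes were higher and 33.6% lower, 9 of 19 side branch genes were higher and 4 lower, and 7 of 13 pyruvate entry genes higher and 4 lower. Of 18 regulators 6 were higher and 9 lower, of 10 hypoxia-responsive genes 2 higher and 5 lower, and of 7 paralogs 2 higher and 2 lower. With 5-ALA against none, where 21.6% of all genes were higher and 21% lower, 6 of 19 side branch genes were higher and 6 lower, and 5 of 13 pyruvate entry genes higher and 6 lower. Of 18 regulators 5 were higher and 5 lower, of 10 hypoxia-responsive genes 3 higher and 3 lower, and of 7 paralogs 1 higher and 1 lower. With 5-ALA against none, Myc, the transcription factor, was at 80.4 ± 2.69 CPM in mutant cells given estradiol and 5-ALA and 39.5 ± 2.20 CPM in mutant cells given estradiol (log2 1.02, adjusted p = 3.99e-16). Egln1, an oxygen-sensing hydroxylase that marks HIF-1 alpha for destruction, was at 6.41 ± 0.194 CPM in mutant cells given estradiol and 5-ALA and 13.6 ± 0.175 CPM in mutant cells given estradiol (log2 -1.08, adjusted p = 4.04e-13). Pgm2, a gene of the phosphoglucomutase family, was at 97.3 ± 3.15 CPM in mutant cells given estradiol and 5-ALA, 73.0 ± 0.605 CPM in mutant cells given estradiol and 139 ± 2.46 CPM in WT cells given estradiol. Prps2, which turns ribose-5-phosphate into the nucleotide precursor PRPP, was at 15.8 ± 1.02 CPM in mutant cells given estradiol and 5-ALA, 29.3 ± 2.77 CPM in mutant cells given estradiol and 13.3 ± 1.56 CPM in WT cells given estradiol.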

How the data were processed

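Total RNA of 12 libraries was sequenced. The submitters' processing notes name mm10 as the genome build and list Bowtie 1.1.1, RSEM 1.2.20 and CASAVA 1.8.2. For the annotation release, read length and strand setting, nothing is given in the sources used here. The deposited tables hold, per the file headers, RSEM expected counts, in which reads shared between genes are divided by likelihood, and the authors' TPM and FPKM, scaled for transcript length and library size. FPKM was not used. Symbols and positions came from GENCODE M21 (24746 of 25097 identifiers matched).

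Expected counts were rounded, filtered with filterByExpr by group, scaled by TMM (factors 0.906 to 1.17) and fitted as 4 group means over all 12 libraries with edgeR 4.0.16 (robust quasi-likelihood F test) in R 4.3.3. Calls were made at a Benjamini-Hochberg adjusted p below 0.05 over 12115 genes. The SE printed is approximate: the size of the log2 fold change divided by the root of F. The common biological coefficient of variation was 0.0334, so small differences pass. Data were simulated for mutant against WT cells given estradiol (11530 genes fitted). Apart from the changed genes, all simulated libraries took the mean levels of WT cells given estradiol. The fit recovered 56% of genes changed 1.25-fold, 78% at 1.5-fold, 82% at 2-fold and 94% at 4-fold. It called 0.097% of unchanged genes. Changed genes that missed the filter counted as not recovered, so these percentages also hold losses to the filter. TPM was used to set genes side by side and, with limma 3.58.1, as an alternative. DESeq2 1.42.0 gave another.

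The genes and lists were chosen with earlier results of these data known. Values per library were printed for called genes with a mean of at least 10 CPM in 1 group of a comparison, up to 6 per direction by fold change, and for Bpgm, Pklr, Pkm, Hk1, Hk2, Slc2a1 and G6pdx. From the other lists, the up to 4 called genes of largest change with a mean of 1 CPM or more over both groups could be named. Mpc1 and Mpc2 were named in addition. Promoter windows were fixed for Bpgm, Pgam1, Pklr, Pkm, Hk1 and Hk2. The Ldha window was added after the values were seen. Of 32 genes with a promoter window, 29 had a strand that matched a transcript sequence.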

Additional observations from a re-analysis of the deposited data

How the results depend on the processing

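Counts of genes called stayed within 1.5 times under the alternatives run, with these exceptions. Without Gapdh, Pgam1, Ldha, Eno1, Tpi1, Pgk1, Aldoa and Pkm, whose reads pseudogenes may share, fewer genes are counted by construction: 8 fell with estradiol (15 with them), 5 of them by 2-fold or more (12 with them). In the same way, 11 were lower with 5-ALA than without it (17 with them) and 9 higher in mutant cells with 5-ALA than in WT cells (14 with them). Scaled by total counts, 3 genes rose 2-fold or more with estradiol (6 by TMM). By limma on TPM with either pseudocount, 4 were higher with 5-ALA than without it (9 in the edgeR fit). The share of TPM without globin genes was 0.914% in mutant cells given estradiol and 5-ALA, 0.904% in mutant cells given estradiol and 0.841% in WT cells given estradiol. As a share of expected counts, it was 0.777% in mutant cells given estradiol, 0.690% in WT cells given estradiol and 1.42% in untreated WT cells.

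Leaving out each library in turn gave 13 to 14 higher and in each case 15 lower genes with estradiol, 16 to 18 and in each case 10 in mutant against WT cells, 7 to 9 and 15 to 17 with 5-ALA, and 13 to 14 and 9 to 10 in mutant cells with 5-ALA against WT cells. Calls lost in this way and not named above were Gpi1 in mutant against WT cells (adjusted p = 0.0758 without WT estradiol replicate 1), Taldo1 with 5-ALA (0.0863 to 0.341), and, in mutant cells with 5-ALA against WT cells, Pgls (0.0588 to 0.119) and Taldo1 (0.0668 to 0.225).

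Signs turned for small changes when libraries were scaled by total counts or tested by limma on TPM, and the cause was not tested. With estradiol, Pfkm was -0.23 by total counts, -0.18 by limma with a pseudocount of 1 and -0.19 with 0.1, and Tkt -0.16, -0.0777 and -0.0778. In mutant against WT cells, in the same order, Pfkp was 0.0022, 0.0537 and 0.0539, Rpia 0.12, 0.19 and 0.19, Rpe 0.15, 0.17 and 0.17, and Taldo1 0.0346, 0.0687 and 0.0688. With 5-ALA against none, Slc2a3 was -0.0014, -0.11 and -0.12, Pfkp -0.0947, -0.21 and -0.21, Pfkfb2 -0.10, -0.20 and -0.21, and Taldo1 -0.0445, -0.14 and -0.14. By limma alone, Bpgm was -0.14 and -0.15, and Pkm -0.15 and -0.15. Over all genes, the share of higher among called genes was 39.5% by total counts and 40.6% by limma with estradiol (48.3% by edgeR with TMM), and 66.5% and 70.7% in mutant against WT cells (51.1%). Of the results for single genes under alternatives, 1567 kept their side of the threshold (31 of them changed sign without a call under either setting), 66 lost and 13 gained a call in the same direction, and 34 turned sign with a call under at least 1 of the settings compared.

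The labels do not state that the replicate numbers pair libraries. After group means were taken off, same-numbered libraries correlated with r of -0.104 to 0.0669. Differently numbered libraries of different groups had r of -0.0925 to 0.115. In 9 of 36 cases a library correlated best with its own number. With 3 libraries per group, these values cannot show whether libraries shared a culture or a batch. With the replicate number as a block, 13 genes rose and 15 fell with estradiol, 18 were higher and 10 lower in mutant against WT cells, 8 and 17 with 5-ALA, and 13 and 10 in mutant cells with 5-ALA against WT cells. Depth limits what can be said of Pfkfb3, Eno2 and Ldhb, which had 0 to 16 counts per group.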
